A study of Mus musculus with 6 samples.

Results

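Neuronal RNA-binding proteins are the factors that give a neuron its own set of spliced and stabilised mRNAs. The genes described here are the 10 named neuron-enriched splicing and stability factors Elavl2, Elavl3, Elavl4, Nova1, Nova2, Rbfox2, Rbfox3, Celf3, Celf4 and Srrm4, taken by their symbols from a table of 54532 genes. They were read in N2a (Neuro2A), a mouse neuroblastoma cell line that can be driven to extend neurites, labelled as strain C57BL/6. RNA sequencing compared 3 libraries transfected with si-NC, a control siRNA, with 3 libraries transfected with si-circRtn4, an siRNA against the back-splice junction of circRtn4, a circular RNA made from exons of Rtn4. The labels give growth medium with serum for all 6 libraries, whereas the study's methods describe retinoic acid differentiation after transfection for N2a cells in general. Both groups are of 1 cell line, and the labels do not say whether the libraries came from separate cultures, so that p-values measure the spread between these libraries. Of the 10 genes, 9 reached a mean of at least 1 FPKM (fragments per kilobase of gene, scaled to the depth of the library) over the 6 libraries and were tested. Rbfox3 did not.

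These factors work at different steps of an mRNA's life. The neuronal Elavl proteins (HuB, HuC and HuD, encoded by Elavl2, Elavl3 and Elavl4) bind U-rich and AU-rich stretches, mostly in introns and 3′ UTRs, and steer splicing and mRNA stability, whereas their relative Elavl1 (HuR) is found in most cell types. Nova, Rbfox and Celf proteins bind short motifs around alternative exons, and Srrm4 (nSR100) promotes the inclusion of very short neuronal exons. Levels per gene do not show splicing, so the values below are amounts of each factor's mRNA and not their activity.

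The libraries held between 13541198 and 15122063 reads on genes, as recovered from the FPKM values, and libraries of different groups correlated at 0.967 to 0.977 across the genes tested. Of 12749 genes tested with limma on log2(FPKM + 1), 556 (4.36%) were higher and 615 (4.82%) lower in si-circRtn4 at an adjusted p under 0.05, which together is 9.19%. When FPKM was rescaled to the same sum in each library, the calls became 980 higher and 400 lower, but they were 594 higher and 541 lower when Gm23935 was left out of that sum. The values of the 2 groups did not overlap for 31.7% of the genes tested. Rtn4 itself was at 61.0 to 69.8 FPKM in si-NC and at 50.1 to 62.7 FPKM in si-circRtn4, and FPKM does not separate its circular from its linear RNA. Among the sympathetic neuroblast markers, Phox2a was at 129 to 218 FPKM in the 6 libraries. The summed level of these markers was 1018 to 1132 FPKM in si-NC and 725 to 1009 FPKM in si-circRtn4. Most of that sum came from Tubb3, Hand2 and Phox2a, and of these Tubb3 and Hand2 overlapped between groups and did not pass the threshold. Of the 10 markers tested, 4 fell (Dbh, Th, Gata2 and Phox2a) and none rose. In bulk RNA, fewer cells expressing a gene and less RNA per cell cannot be told apart. Markers of astrocytes, macrophages and fibroblasts summed to at most 1.68 FPKM in any library, and those of oligodendrocytes to 3.82 to 5.68 FPKM. Endothelial markers summed to 2.30 to 3.38 FPKM in si-NC and 1.16 to 1.74 FPKM in si-circRtn4, where Vwf fell, while Cdh5 and Kdr were at 0 in every si-NC library.

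In the si-NC libraries Celf3 was the most abundant of the 10 genes at 51.6 FPKM, and Rbfox2 at 39.3 and Elavl3 at 24.9 followed. Neighbours in this upper part of the order did not overlap between libraries. Nova2 (15.4 FPKM), Elavl4 (13.6 FPKM), Elavl2 (10.5 FPKM) and Srrm4 (9.96 FPKM) came next, and among these 4 each overlapped with its neighbour. Nova1 (6.34 FPKM) and Celf4 (4.56 FPKM) were lower, each apart from its neighbours. In the si-circRtn4 libraries Rbfox2 stood first at 40.8 FPKM, Celf3 was second at 33.0 FPKM, and the ranges of Celf3 and Elavl3 overlapped. Elavl4, below Nova2 by its mean in si-NC, was above it at 24.3 FPKM, and its range overlapped with that of Elavl3. All these levels are per listed gene length, which is not always close to the length of a transcript. For Elavl2 it was 8313 bases, beside 3671 for its transcript with the longest 3′ UTR. For Nova2 both were 8372 bases. The order of the genes thus depends on the listed lengths as well as on the reads.

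Elavl4 rose, and Celf3 and Srrm4 fell, while 6 of the 9 genes tested did not pass the threshold. The 3 genes called are 33.3% of those tested, beside 9.19% of all genes tested. Without adjustment the same 3 of 9 were below 0.05 in limma, beside 3305 of all 12749 genes tested. The groups did not overlap for 4 of the 9 genes, beside 31.7% of all genes tested. The median log2 fold change of the 9 genes was 0.053, beside 0.0020 for all genes tested, so that the list had no common direction. The genes were chosen with results of these data known, and their count is a description.

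**Figure D1:**
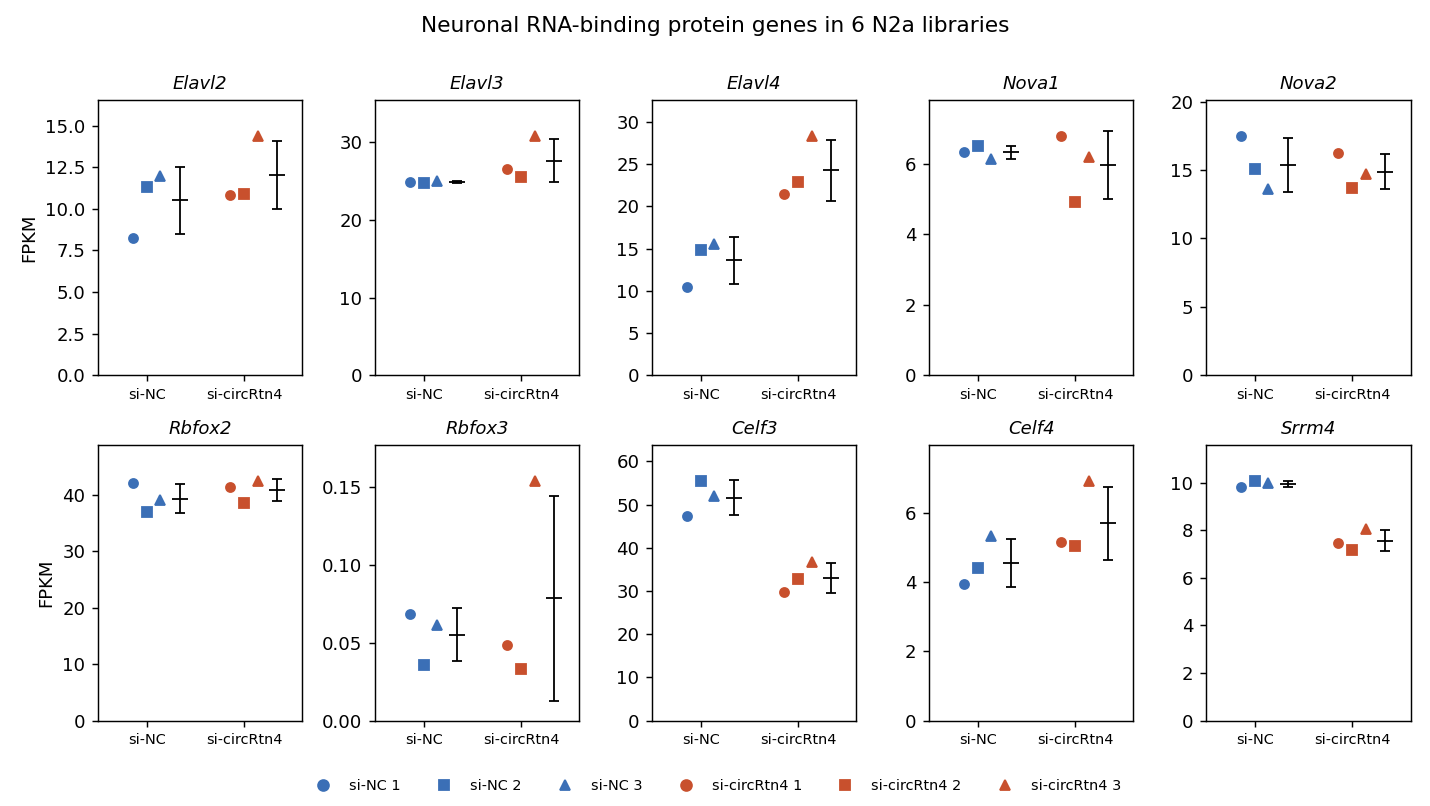
FPKM of each of the 10 genes (vertical axis, from 0, with its own scale per gene) in the 3 si-NC (blue) and 3 si-circRtn4 (orange) libraries; marker shapes give the replicate number and black bars the mean ± SD. Elavl4, Celf3 and Srrm4 have groups well apart, Elavl3 is apart by a small margin, and Rbfox3 is near 0 throughout.

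Elavl4 encodes HuD, which stabilises mRNAs of growing neurons such as that of Gap43. It was at 10.4, 14.8 and 15.6 FPKM in si-NC replicates 1, 2 and 3 and at 21.5, 22.9 and 28.4 FPKM in si-circRtn4 replicates 1, 2 and 3. Every si-circRtn4 library lay above every si-NC library, and si-NC replicate 1 was the lowest of all. The si-NC mean was 13.6 ± 2.79 FPKM (SD, n = 3), and the si-circRtn4 mean of 24.3 ± 3.64 FPKM (SD, n = 3) amounted to 178% of it. The log2 fold change on the log2(FPKM + 1) scale was 0.80 (standard error 0.16, 95% confidence interval 0.42 to 1.18, Benjamini-Hochberg adjusted p = 0.0252 in limma). An exact permutation test of the group means, two-sided, gave p = 0.1, which is the least it can give for groups of 3. Between 848 and 2223 reads per library stood behind these values, and no other annotated gene overlaps Elavl4. The call was lost without si-NC replicate 2 (adjusted p = 0.0589) and without si-circRtn4 replicate 1 (0.0514), replicate 2 (0.0721) or replicate 3 (0.0676), as well as with no filter on low values (0.0956), while the log2 fold change lay between 0.63 and 0.90 over the 6 fits that each left out 1 library.

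Elavl2 and Elavl3, the other neuronal members of that family, did not pass the threshold. Elavl3 encodes HuC, a marker of differentiated neurons. It was at 24.9, 24.8 and 25.0 FPKM in si-NC and at 26.5, 25.6 and 30.9 FPKM in si-circRtn4. These groups did not overlap, but the margin was small beside the spread of the si-circRtn4 libraries, of which replicate 3 was the highest. Its log2 fold change was 0.14 (95% confidence interval -0.055 to 0.34, adjusted p = 0.343 from limma). Exons of Elavl3 share 256 bases with Gm49318 on the same strand, which was listed at a mean of 0 FPKM. Elavl2, which encodes HuB, was at 8.23, 11.3 and 12.01 FPKM in si-NC and at 10.8, 10.9 and 14.4 FPKM in si-circRtn4. Its groups overlapped, and the log2 fold change was 0.18 (95% confidence interval -0.18 to 0.55, adjusted p = 0.520 from limma). The interval of Elavl2 reaches above the lower bound of that of Elavl4, and a difference between the 2 changes was not tested.

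Shares within a family do not depend on how a library is scaled, though they do depend on the listed gene lengths. Of the summed FPKM of Elavl2, Elavl3 and Elavl4, Elavl4 made up 24.0%, 29.1% and 29.6% in the si-NC libraries and 36.5%, 38.6% and 38.5% in the si-circRtn4 libraries. The share of Elavl3 went from 51.1% ± 5.26 to 43.4% ± 1.605 (SD, n = 3 each), without overlap, and that of Elavl2 from 21.3% ± 2.12 to 18.8% ± 0.690, with overlap. Shares add up to a whole, and the mean FPKM of neither gene was lower in si-circRtn4. With Elavl1 added to the sum, the Elavl3 share overlapped between groups (30.6% to 38.6% in si-NC, 30.3% to 32.1% in si-circRtn4). The Elavl4 share in that sum did not overlap (16.2% to 19.3% in si-NC, 26.0% to 27.9% in si-circRtn4). The sum of the 3 genes was 43.5 to 52.6 FPKM in si-NC and 58.8 to 73.7 FPKM in si-circRtn4. The widely expressed Elavl1 was at 25.3 ± 4.16 and 25.4 ± 2.35 FPKM (SD, n = 3 each), with a log2 fold change of 0.015 (adjusted p = 0.960 from limma).

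**Figure D2:**
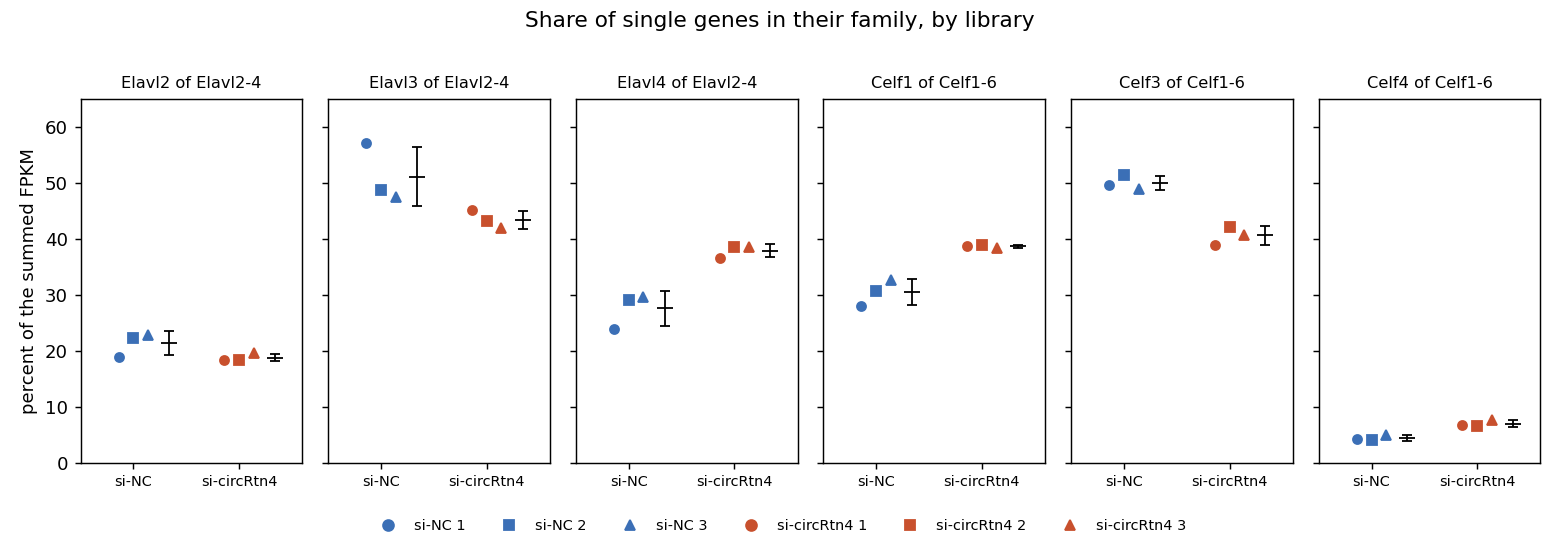
Percent of the summed FPKM of Elavl2 to Elavl4 (left 3 panels) or of Celf1 to Celf6 (right 3 panels) that each gene made up in each library, with the mean ± SD as black bars. The Elavl4 share is higher in all 3 si-circRtn4 libraries (36.5% to 38.6%) than in all 3 si-NC libraries (24.0% to 29.6%), and the Celf3 share is lower (38.9% to 42.2% against 48.9% to 51.4%).

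Celf3 encodes a neuron-enriched member of the CUGBP Elav-like family, which binds GU-rich RNA and regulates alternative splicing. It was at 47.4, 55.4 and 52.1 FPKM in si-NC and at 29.7, 32.7 and 36.7 FPKM in si-circRtn4. The highest si-circRtn4 library lay well below the lowest si-NC library. The si-NC mean was 51.6 ± 4.04 FPKM (SD, n = 3), of which the si-circRtn4 mean of 33.0 ± 3.52 FPKM (SD, n = 3) was 63.9%. The log2 fold change was -0.63 (standard error 0.10, 95% confidence interval -0.86 to -0.40, adjusted p = 0.0111 from limma). Celf3 had the lowest adjusted p of the 9 genes, and only leaving out si-NC replicate 2, among the 6 fits without 1 library, took it past the threshold (adjusted p = 0.0513). The exact permutation test gave p = 0.1. Reads per library numbered 2309 to 4373. Exons of Celf3 share 74 bases with those of Riiad1, a gene on the opposite strand at a mean of 2.33 FPKM, and the sources used here do not say whether reads were counted by strand.

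Celf4, which acts in translation and stability of synaptic mRNAs, was at 3.95, 4.40 and 5.33 FPKM in si-NC and at 5.17, 5.04 and 6.92 FPKM in si-circRtn4. The groups overlapped, since si-NC replicate 3 lay above si-circRtn4 replicates 1 and 2. The log2 fold change was 0.27 (95% confidence interval -0.053 to 0.59, adjusted p = 0.273 from limma). Celf1, the family's widely expressed member, was at 31.5 ± 4.22 and 31.4 ± 2.84 FPKM (SD, n = 3 each). Of the summed FPKM of Celf1 to Celf6, Celf3 made up 49.6%, 51.4% and 48.9% in the si-NC libraries and 38.9%, 42.2% and 40.6% in the si-circRtn4 libraries. The shares add up to a whole, and as Celf3 fell the share of Celf1 went from 28.0% to 32.6% in si-NC to 38.4% to 38.9% in si-circRtn4, and that of Celf4 from 4.09% to 5.001% to 6.50% to 7.67%. Neither gene passed the threshold in its own FPKM. The relatives used in such shares were picked by family after their values had been seen.

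Srrm4 encodes nSR100, which drives the inclusion of microexons in neuronal mRNAs. It was at 9.81, 10.1 and 10.0 FPKM in si-NC and at 7.47, 7.17 and 8.05 FPKM in si-circRtn4. The si-NC libraries lay close together, and all 3 si-circRtn4 libraries were below them. The mean was 9.96 ± 0.132 FPKM in si-NC (SD, n = 3) and 7.56 ± 0.451 FPKM in si-circRtn4 (SD, n = 3), or 75.9% of it. The log2 fold change was -0.36 (standard error 0.072, 95% confidence interval -0.52 to -0.19, adjusted p = 0.0247 from limma). The exact permutation test gave p = 0.1, and 922 to 1285 reads per library stood behind the values. The fall kept its direction but lost the call when FPKM was rescaled to the same sum (adjusted p = 0.0767, but 0.0325 with Gm23935 left out of the sum), without si-NC replicate 2 (0.0972) or replicate 3 (0.0763), and without si-circRtn4 replicate 1 (0.0731) or replicate 2 (0.0851). It was also lost with no filter on low values (0.0557). Its exons share 68 bases with Srrm4os, an antisense transcript at a mean of 0.992 FPKM. Srrm3, its closest relative with overlapping function, was at 14.5 ± 1.85 and 11.2 ± 0.604 FPKM (SD, n = 3 each), and its log2 fold change was -0.34 (adjusted p = 0.0760 from limma). The share of Srrm4 in the sum of the 2 genes was 37.2% to 43.5% in si-NC and 38.9% to 41.7% in si-circRtn4.

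**Figure D3:**
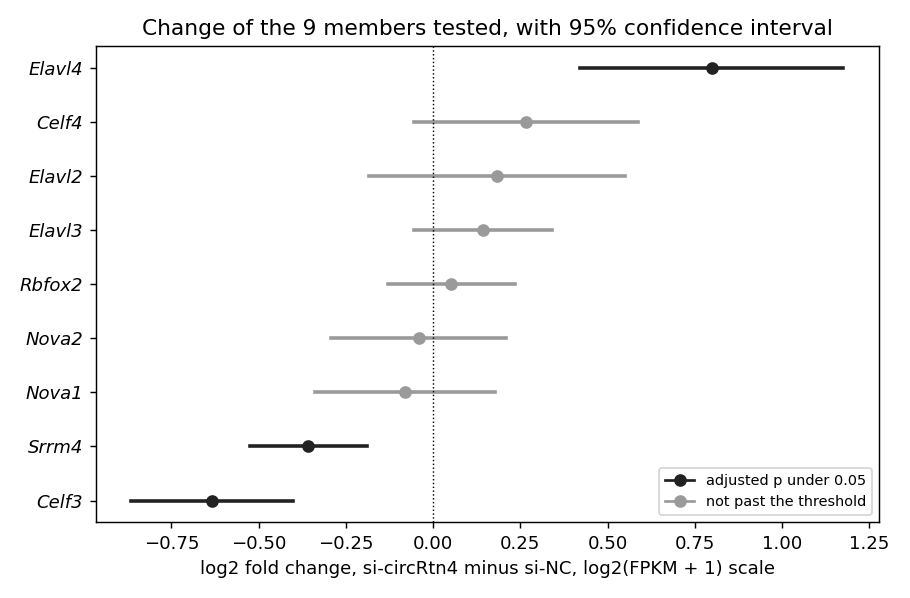
Log2 fold change of si-circRtn4 minus si-NC on the log2(FPKM + 1) scale (horizontal axis) for the 9 genes tested, with 95% confidence intervals from limma; black marks genes at an adjusted p under 0.05. The intervals of Elavl4 (0.42 to 1.18), Srrm4 (-0.52 to -0.19) and Celf3 (-0.86 to -0.40) lie away from 0, and those of the other 6 genes include 0.

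The Nova genes encode KH-domain splicing factors that bind YCAY motifs. Nova1 was at 6.35, 6.51 and 6.15 FPKM in si-NC and at 6.81, 4.91 and 6.21 FPKM in si-circRtn4. Si-circRtn4 replicate 2 was the lowest and replicate 1 the highest, and the groups overlapped. The log2 fold change was -0.082 (95% confidence interval -0.34 to 0.18, adjusted p = 0.701 from limma), and it was 0.033 without si-circRtn4 replicate 2. Exons of Nova1 share 310 bases with Gm33869 on the same strand, which was listed at a mean of 1.34 FPKM. Nova2, whose product is abundant in the cortex, was at 17.5, 15.1 and 13.6 FPKM in si-NC and at 16.2, 13.7 and 14.7 FPKM in si-circRtn4. Its log2 fold change was -0.041 (95% confidence interval -0.29 to 0.21, adjusted p = 0.853 from limma) and turned positive when FPKM was rescaled to the same sum (0.046, but -0.020 with Gm23935 left out of the sum), without si-NC replicate 1 (0.050) or without si-circRtn4 replicate 2 (0.014). Exons of Nova2 share 2652 bases with Gm26821 on the opposite strand, which was listed at a mean of 0 FPKM.

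Of the Rbfox genes, Rbfox2 was well expressed and Rbfox3 was barely detected. Rbfox2, a splicing factor that binds UGCAUG and is found in neurons and in other cells, was at 42.0, 36.9 and 39.0 FPKM in si-NC and at 41.3, 38.6 and 42.4 FPKM in si-circRtn4. Its groups overlapped, with a log2 fold change of 0.053 (95% confidence interval -0.13 to 0.24, adjusted p = 0.730 from limma). Rbfox3, whose protein is the neuronal marker NeuN, was listed at 0.0358 to 0.0683 FPKM in si-NC and at 0.0331 to 0.154 FPKM in si-circRtn4. These values came from 3 to 6 and from 3 to 13 reads per library, so that no fold change is given at this depth. The third gene of the family, Rbfox1, was also below the filter, at 0.331 to 0.407 FPKM in si-NC and 0.623 to 0.829 FPKM in si-circRtn4. Rbfox2 made up 97.7% to 99.0% of the family's summed FPKM in every library.

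The 10 genes lie on 9 chromosomes in GRCm38, and all have the same coordinates in the deposited table and in GENCODE M21. Celf3 spans the least genome (chr3:94478295-94492198, plus strand, 13904 bases) and Rbfox3 the most (chr11:118489762-118911597, minus strand, 421836 bases). Elavl4 (chr4:110203722-110351909) and Elavl2 (chr4:91250763-91400785) share a chromosome and the minus strand. Srrm4 lies at chr5:116439275-116591817, Nova2 at chr7:18925888-18965319, Elavl3 at chr9:22015005-22052023, Nova1 at chr12:46694517-46818929 and Rbfox2 at chr15:77078990-77307004.

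The study asks whether circRtn4 acts through miR-24-3p. Letters matching the seed of this microRNA, and of the siRNA itself, were therefore looked up in the longest 3′ UTR that each gene has in the annotation. The 2 small RNAs are shown 5′ to 3′ with the seed (bases 2 to 8) in capitals. The microRNA is from RefSeq (GRCm38.p6), and for the siRNA, whose guide strand the study does not name, the strand complementary to the listed one was used.
mmu-miR-24-3p: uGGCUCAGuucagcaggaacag
si-circRtn4 guide: aAAAGGGTctcatctgaag

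The 7-base site of miR-24-3p, CTGAGCC on the sense strand, was present in the 3′ UTRs of 4 of the 10 genes, beside 19.6% of the 10694 genes tested that have an annotated 3′ UTR. Many of the 10 genes have long 3′ UTRs, and among genes with a 3′ UTR of like length (within 20%) the share with a site ran from 15.4% for Celf3 to 45.1% for Rbfox2. Nova2 held 4 sites in 6701 bases, where 44.6% of genes of like length held at least 1. Rbfox2, Rbfox3 and Srrm4 held 1 site each, where the shares were 45.1%, 21% and 43.6%. The sites of the guide seed, ACCCTTT, were present once in Nova2 and once in Rbfox3, beside 12.5% of all these genes, or 47.9% and 11.8% of those of like length. Elavl4 and Celf3 held neither. The sites below are shown on the sense strand within 30 bases, with the site in capitals, because they set the gene with the most sites and no detected change (Nova2) beside the only gene with a site that passed the threshold (Srrm4). The first Nova2 site below lies at chr7:18962320-18962326 and the second at chr7:18965120-18965126, and both are 8mer sites, with an A after the 7 bases. The guide site of Nova2 lies at chr7:18963409-18963415 and the Srrm4 site at chr5:116443215-116443221.
Nova2, first 8mer site of miR-24-3p: gtcttgggcagggctCTGAGCCagcctgcc
Nova2, second 8mer site of miR-24-3p: tgagattttgcccatCTGAGCCaccaacct
Nova2, guide seed site: gaactcttttaattaACCCTTTctgtgttc
Srrm4, site of miR-24-3p: agctgcctggctttcCTGAGCCttgtgggt

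Among all genes tested with a 3′ UTR, the median log2 fold change was 0.0043 with and -0.00093 without a miR-24-3p site, and -0.049 with and 0.0068 without a guide seed site. Genes with a guide seed site were called in 13.2% of cases and those without in 9.58%, a difference that was not tested. A match of letters is a description of the annotated 3′ UTR and not a site shown to be bound.

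The AU-rich element TTATTTATT, of the kind that Elavl proteins bind, was present in the 3′ UTRs of Elavl4, Celf3 and Srrm4 and in none of the other 7 genes. It was found in 8.39% of the 10694 genes, in 12.8% of those with a 3′ UTR as long as that of Elavl4 (2610 bases), in 6.90% for Celf3 (1075 bases) and in 21.1% for Srrm4 (5292 bases). Srrm4 held 5 copies, counting overlapping ones, between positions 1977 and 2066 of its 3′ UTR. This motif was chosen after the changes had been seen, and among all genes tested 12.9% of those with it and 9.76% of those without it were called, with median log2 fold changes of 0.027 and -0.0027. The element is in capitals below, on the sense strand, at chr4:110204995-110205003 (minus strand), chr3:94492125-94492133 (plus strand) and, for the third copy of Srrm4, chr5:116442559-116442567 (minus strand). The Srrm4 stretch also holds the copies at positions 1990 to 1998 and 2005 to 2013, which are not marked, and the latter overlaps the marked copy.
Elavl4: gcttgaaacacTTATTTATTtaattgcaga
Celf3: gttctctactcTTATTTATTgagttttact
Srrm4: ttatttattttTTATTTATTtattatttat

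Relatives of these factors were read in the same comparison. Of 33 further tissue-specific or widely expressed RNA-binding genes (Elavl1, the Celf, Ptbp, Mbnl, Khdrbs, Msi, Fmr1 and Pcbp families and others), 25 were tested, 2 fell and none rose, which is 8% beside 9.19% of all genes tested. Celf5 fell from 7.33 ± 1.36 to 4.10 ± 0.755 FPKM (SD, n = 3 each; log2 fold change -0.71, adjusted p = 0.0298 from limma). Srrm2, a core component of nuclear speckles, fell from 72.9 ± 1.39 to 57.0 ± 3.79 FPKM (log2 fold change -0.35, adjusted p = 0.0295 from limma). With replicate number as a block, 6 of the 25 were called, beside 19.0% of all genes, and Srrm3, Rbms1 and Pcbp4 (lower) and Pcbp2 (higher) were added. Celf5 was called in 2 and Srrm2 in 1 of the 6 leave-one-out fits, with adjusted p up to 0.0853 and 0.0989. Srrm2 was also not called when FPKM was rescaled to the same sum (adjusted p = 0.0732 from limma). Ptbp1 (log2 fold change -0.12) and Ptbp2 (0.15), the repressors of neuronal exons, did not pass the threshold. Esrp1 and Rbm24 were listed at 0 in all libraries.

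Of 41 general splicing factors (SR proteins, hnRNPs and core spliceosome subunits), all were tested. None passed at an adjusted p under 0.05 in limma, beside 9.19% of all genes tested. None passed in limma-voom on the recovered reads either, beside 12.8% of all genes tested. Without adjustment 2 of the 41 were below 0.05 in limma, beside 3305 of all 12749 genes tested. Their median log2 fold change was -0.076, with 31 below and 10 above 0. For all genes tested it was 0.0020, with 6328 below and 6421 above 0. When FPKM was rescaled to the same sum the median of all genes tested was 0.082, and the directions of the 41 were not counted on that scale. With replicate number as a block, 1 of the 41, Srsf4, was called (log2 fold change -0.37, adjusted p = 0.0141 from limma), beside 19.0% of all genes tested.

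Genes known as targets of these factors, by mRNA stability or by neuron-specific exons, were read at the level of the whole gene. Of 31 such genes 24 were tested, 2 rose and 2 fell, which is 16.7% beside 9.19% of all genes tested, with a median log2 fold change of 0.016. Ache, which encodes acetylcholinesterase and whose mRNA is stabilised by HuD, fell from 17.2 ± 2.77 to 7.54 ± 0.625 FPKM (SD, n = 3 each; log2 fold change -1.08, adjusted p = 0.00324 from limma). Agrn, which encodes agrin and holds Nova-dependent exons, fell from 44.3 ± 2.36 to 32.7 ± 1.27 FPKM (log2 fold change -0.43, adjusted p = 0.0143 from limma). Cdkn1a, which encodes the cell cycle inhibitor p21, rose from 19.7 ± 0.383 to 26.7 ± 3.18 FPKM (log2 fold change 0.41, adjusted p = 0.0353 from limma). Vegfa, a growth factor gene with AU-rich elements, rose from 60.8 ± 9.88 to 89.8 ± 10.0 FPKM (log2 fold change 0.56, adjusted p = 0.0404 from limma). Of the 6 leave-one-out fits, Ache was called in 6, Agrn in 5, and Cdkn1a and Vegfa in 1 each, with adjusted p up to 0.109 for Cdkn1a and 0.114 for Vegfa. Vegfa was also not called after quantile normalization (adjusted p = 0.0535 from limma). With replicate number as a block, 7 of the 24 were called, beside 19.0% of all genes, and Mycn and Ank3 (higher) and Gap43 (lower) were added. The fall of 4 neuroblast markers given above was seen in the same libraries, and its part in these results was not tested.

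**Figure D4:**
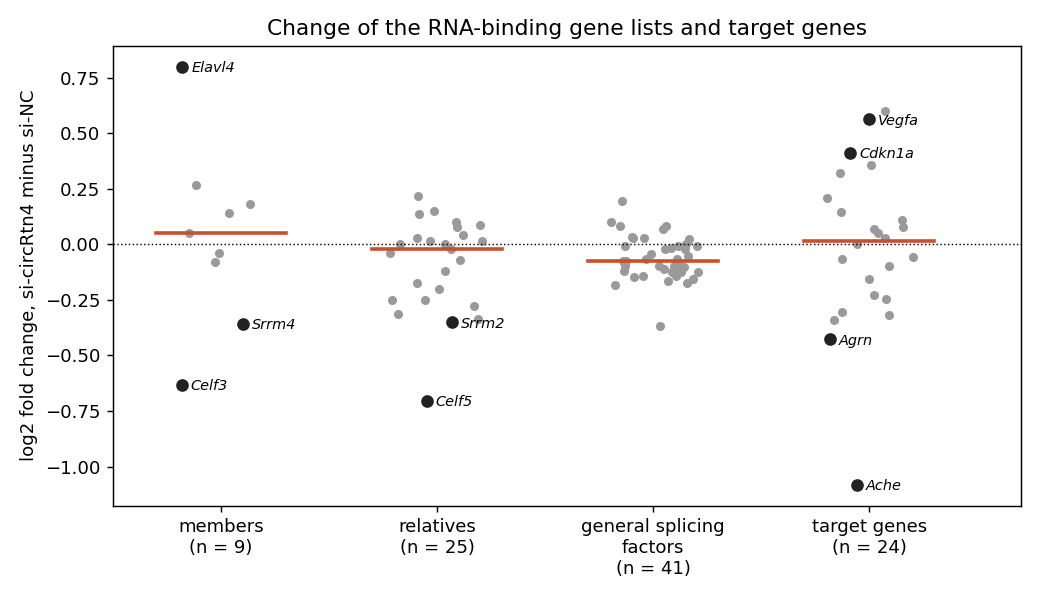
Log2 fold change of si-circRtn4 minus si-NC (vertical axis, log2(FPKM + 1) scale) of the tested genes of 4 lists, with points spread sideways for visibility. Black points with names are genes at an adjusted p under 0.05, orange bars are list medians, and the dotted line is the median of all genes tested; the 3 called members span -0.63 to 0.80, and no general splicing factor is called.

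The changes of Elavl4, Celf3 and Srrm4 were also read by replicate number, since libraries with the same number deviated together. On the log2(FPKM + 1) scale, Elavl4 was higher by 0.98, 0.59 and 0.83 in replicates 1, 2 and 3. Celf3 differed by -0.66, -0.74 and -0.49, and Srrm4 by -0.35, -0.44 and -0.28. Celf4 (by 0.32, 0.16 and 0.32) and Elavl3 (by 0.089, 0.043 and 0.30) were also higher in each of the 3 pairs. With replicate number as a block, neither was called, and the adjusted p of Celf4 was 0.0543 in limma.

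**Figure D5:**
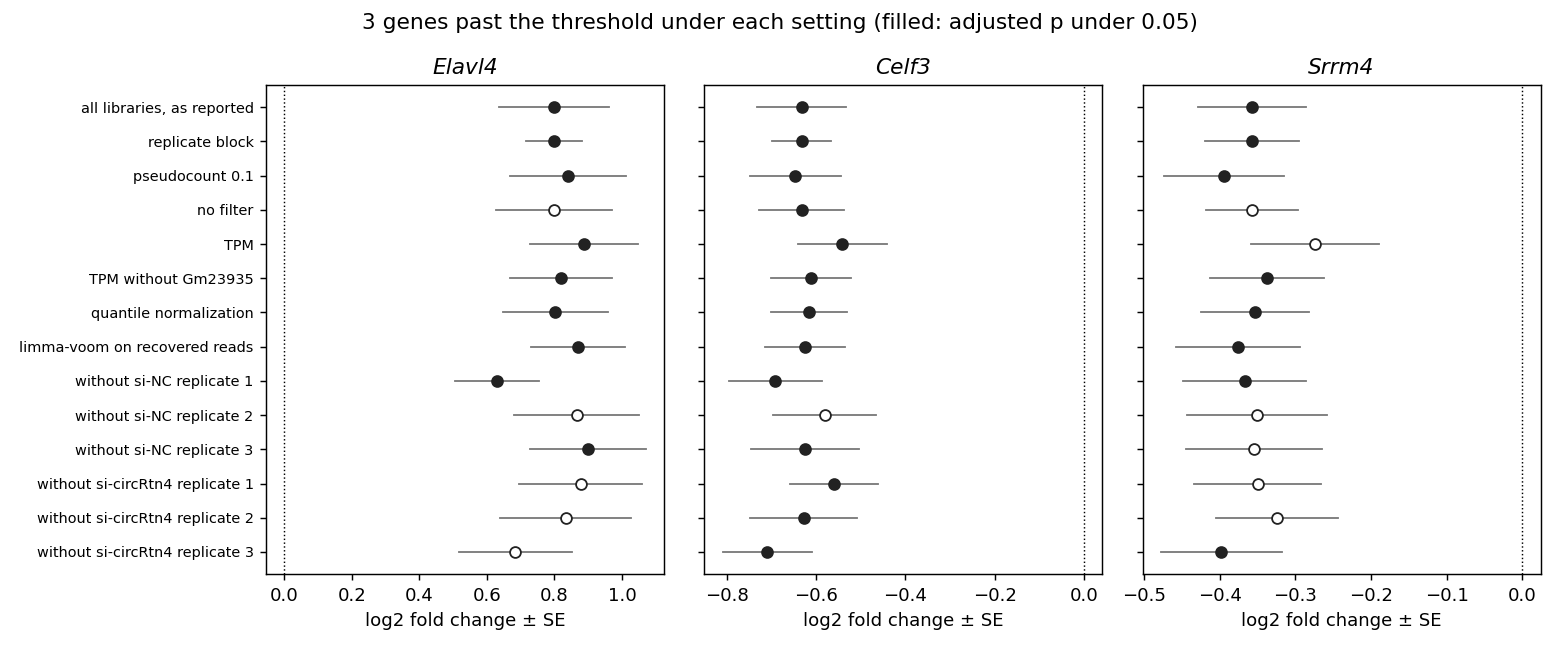
Log2 fold change ± standard error (horizontal axis, with 0 dotted) of Elavl4, Celf3 and Srrm4 with all libraries as reported and under 13 other settings (vertical axis); filled points have an adjusted p under 0.05 from limma. Celf3 is open in 1 setting, Elavl4 in 5 and Srrm4 in 6, and no point crosses 0.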

How the data were processed

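The authors deposited 1 FPKM value per gene and library, with gene coordinates and length. The submitters' processing notes list Bowtie 0.12.2, mm8 and mm9, but 98.0% of the genes have the coordinates of GENCODE M21 (GRCm38). The counting tool and strandedness are not given in the sources used here. The table holds 6 further columns of values that match no sample label, which were not used. Multiplied by gene length, 100% of the values were whole multiples of 1 read (within 0.01 reads), which gave back the reads.

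Log2(FPKM + 1) was fitted with limma 3.58.1 in R 4.3.3 (eBayes with a mean-variance trend, unpaired) for the 12749 genes whose mean reached 1 FPKM, with Benjamini-Hochberg adjustment over all of them. Fold changes on this scale understate those of low genes. The pipeline was tested on simulated data. Alternatives were another pseudocount, no filter, rescaling, quantile normalization, limma-voom, replicate number as a block and leaving out each library. After the group means were subtracted, libraries of the same number had correlations of 0.331, 0.190 and 0.226 and others at most 0.00913, so the numbers were taken as pairs in the blocked fit. Sites were searched in the longest 3′ UTR of protein-coding transcripts of GENCODE M21. Python 3.11.15 was used for these steps. All 10 members are named. Of each other list, up to 3 genes with the largest rise and fall past the threshold are named, and those called with the block or used as family relatives were added after their values were seen. Members and lists were chosen with earlier results of these data known. The value of 1 cell type marker is not reported here.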

Additional observations from a re-analysis of the deposited data

How the results depend on the processing

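Of the 9 genes tested, 3 were called in the fit as reported and 1 (Celf3) with no filter on low values, where 28442 genes were tested. The fits without 1 library called 0 to 3 of them, with 0 without si-NC replicate 2, 1 without si-circRtn4 replicate 1 or replicate 2, and 2 without si-NC replicate 3 or si-circRtn4 replicate 3. With replicate number as a block, Elavl4, Celf3 and Srrm4 were also called, beside 19.0% of all genes tested. Their adjusted p in that limma fit was 0.0058, 0.0058 and 0.0188, whereas the values given for each gene above are from the unpaired fit. Elavl4, Celf3 and Srrm4 kept their direction under all 13 alternatives. Nova1 ranged from -0.17 to 0.033 without 1 library and Nova2 from -0.12 to 0.050, and Nova2 was at 0.046 as TPM (FPKM rescaled to the same sum) and at -0.020 as TPM without Gm23935. As TPM the median of all genes tested was 0.082, and without Gm23935 it was 0.021.

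The called relatives numbered 2 as reported, 0 with no filter, 6 with the block, 3 with quantile normalization, 3 with limma-voom and 0 to 3 without 1 library. Besides the block, Pcbp2 was called as TPM, with quantile normalization and with limma-voom. The called general splicing factors numbered 0 as reported, 1 with the block and 0 without any 1 library. The called target genes numbered 4 as reported, 2 with no filter, 7 with the block and 1 to 3 without 1 library. They numbered 6 as TPM, 5 as TPM without Gm23935 and 6 with limma-voom, beside 10.8%, 8.90% and 12.8% of all genes tested. Besides the block, Mycn was called in these 3 settings and with quantile normalization, and Ank3 as TPM and with limma-voom. Over all genes, 556 were higher and 615 lower as reported, 1185 and 1243 with the block, 210 and 261 with no filter, and 163 and 217 without si-NC replicate 2, the lowest of the fits that left out 1 library. Fits without 1 library have fewer samples and the fit with no filter tests more genes, and the cause of the shift with the block was not tested. The values of the 6 relatives and target genes named as called were followed over the alternatives after the data had been seen, and all 6 kept their direction. The depth of 3 to 13 reads limits Rbfox3 to a statement of its low level.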

Other observations

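The Rbfox motif TGCATG, on the sense strand, was present in the 3′ UTRs of 5 of the 10 genes, beside 36.1% of the 10694 genes tested with a 3′ UTR. Among genes with a 3′ UTR of like length the share ran from 29.6% for Celf3 to 88.2% for Nova2. Nova1 held 6 copies in 5452 bases and Nova2 held 3 in 6701 bases, where 84.4% and 88.2% of genes with a 3′ UTR of like length held at least 1. Elavl3, Elavl4 and Srrm4 held 1 copy each. Rbfox2 and Rbfox3 held none in their own 3′ UTRs, where 83.7% and 39.2% of genes of like length held at least 1.

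The 3 genes whose levels over the 6 libraries were closest to those of Elavl4, by Euclidean distance of log2(FPKM + 1) centred on each gene's mean and out of 12749 genes tested, were Gm5786 (distance 0.252), F2r (0.256) and Ada (0.284). F2r, which encodes a thrombin receptor, went from 47.7 ± 5.45 to 86.0 ± 11.9 FPKM (SD, n = 3 each). Ada, which encodes adenosine deaminase, went from 2.19 ± 0.382 to 5.16 ± 0.536 FPKM (SD, n = 3 each). Gm5786 is annotated as a predicted pseudogene and is uncertain, since reads of near-identical copies cannot be told apart.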
